A study of Homo sapiens with 30 samples.

Results

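The genes described here lie at 2 chromosome ends, the tip of the short arm of chromosome 8 and the tip of the long arm of chromosome 3, where the line carrying mutant TIA1 had lower RNA levels than the line carrying wild-type TIA1. Members were chosen by position: genes starting between positions 1 and 20000000 of chromosome 8, or between 190000001 and 200000000 of chromosome 3 (GRCh38), with at least 300 counts summed over 30 libraries. Symbols beginning SLC, RPS, RPL, EIF, NDUF or TUSC3, and TFRC, were set aside, which removed 5 genes. The windows hold 669 genes of the count table, of which 133 reached the count limit and 128 are members, 76 on chromosome 8 and 52 on chromosome 3, out of 60664 genes in all. The windows themselves were chosen on the difference between the lines, so that difference is given below as a description, with no test.

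RNA was counted in 10 groups of 3 libraries, made from Flp-In T-REx HEK293 lines, derivatives of an established human embryonic kidney line in which tetracycline switches on an inserted gene. One line carries GFP-TIA1aWT (WT) and the other GFP-TIA1aWDM (WDM), the form of this RNA-binding protein mutated in Welander distal myopathy, a late-onset muscle disease. Cytosol extracts were taken from untreated cells, from cells given tetracycline (tet), and from cells given tetracycline and then 0.5 mM sodium arsenite for 60 minutes, an oxidative stress under which stress granules form. The granule fraction, immunopurified through the GFP tag from pelleted granule cores, came from cells given tetracycline with or without arsenite. All groups carry a GFP-TIA1a insertion, and each form of TIA1 is represented by a single cell line, so the form of TIA1 and any other property of its line cannot be told apart in these data. The labels do not say that replicates were separate cultures, so p-values measure the spread between these libraries, which may be technical.

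Libraries held 5906167 to 27419145 counts, and 3 counts, the limit that a count of 0 allows, correspond to 0.109 to 0.508 CPM, the count scaled to library size. The epithelial keratins KRT8 (median 107 CPM over the libraries) and KRT18 (92.3 CPM) and the kidney factor PAX2 (4.35 CPM) were present. The other listed marker of kidney origin, LHX1, was low, with a median of 1.72 CPM and a minimum of 0.730 CPM. Of 8 markers of other cell types, HBB was at 0 in every library and CD3E had at most 1 count, while COL3A1 had the highest median, 2.91 CPM. The TIA1 row itself held 3 counts over all libraries and at most 1 in any library, so induction of the inserted gene could not be followed there. The WT cytosol library of replicate 1 with tetracycline stood above replicates 2 and 3 of its group for PAK2, DLGAP2 and FGF12, whose values are given below.

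Neighbouring genes on a chromosome arm need share no function, and most are read from promoters of their own. The end of the short arm of chromosome 8 holds the defensin cluster and repeated families such as FAM86B and FAM66, beside single-copy genes for cathepsin B (CTSB), acid ceramidase (ASAH1), squalene synthase (FDFT1) and lipoprotein lipase (LPL). The end of the long arm of chromosome 3 holds OPA1, a mitochondrial fusion protein, HES1, a Notch-responsive repressor, PAK2, a kinase of the cytoskeleton, and RNF168, a ubiquitin ligase of DNA repair. Of the members, 106 carry a symbol. By the GENCODE annotation 87 are protein coding, 29 are long non-coding RNAs (lncRNA) and 12 are of other types, mostly pseudogenes.

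The level of nearly all members was lower in WDM than in WT, by a similar amount on both chromosomes. A line difference is the fitted log2 fold change of WDM against WT, and it was taken in 5 settings: untreated, tetracycline and arsenite cytosol, and tetracycline and arsenite granules. Over the 118 members tested in both fractions, the median of the mean of those 5 differences was -0.52 on the log2 scale, which is 70.0% of the WT level, with quartiles of -0.61 and -0.36. The same median over all 16159 genes tested in both fractions was 0.01. On chromosome 8 the median was -0.50 over 69 members (70.9% of WT) and on chromosome 3 it was -0.55 over 49 members (68.1% of WT). Of the 118 members, 103 lay between -0.9 and -0.2, 2 lay under -1 and 4 lay above 0.

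In all 5 settings, 96 of the 118 members were below 0, where the background over all genes was 16.2%. In 34 members every WDM library was below every WT library in each of the 5 settings, where the background was 1.92%. Because the windows were chosen by this difference, nothing is read from these counts. Setting by setting, every WDM library lay below every WT library in 78 of 119 members in untreated cytosol (background 18.3%), 68 of 119 in cytosol with tetracycline (10.2%), 84 of 119 in cytosol with arsenite (14%), 72 of 127 in granules with tetracycline (10.2%) and 71 of 127 in granules with arsenite (11.5%). The median line difference in the same order was -0.44, -0.50, -0.50, -0.52 and -0.59. The value for untreated cytosol was -0.40 and that for arsenite granules -0.40 over the members whose span overlaps no other gene.

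The members' summed counts give the same difference without a fitted model. The windows were chosen by that difference, so these shares are a description and no further support for it. In untreated cytosol the chromosome 8 members took 0.242 ± 0.00238% of all counts in WDM and 0.314 ± 0.00621% in WT (SD, n = 3), which put WDM at 77.1% of WT. The chromosome 3 members took 0.221 ± 0.00325% in WDM and 0.308 ± 0.00649% in WT, which is 71.9%. The WDM and WT libraries did not overlap in any of the 10 combinations of setting and chromosome. In granules with arsenite WDM stood lowest, at 67.5% of WT for chromosome 8 (0.331 ± 0.0123% against 0.491 ± 0.0174%, n = 3) and at 64.5% for chromosome 3 (0.265 ± 0.00612% against 0.411 ± 0.0349%, n = 3). In bulk RNA a share of counts does not separate fewer cells with a transcript from less of it per cell.

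**Figure D1:**
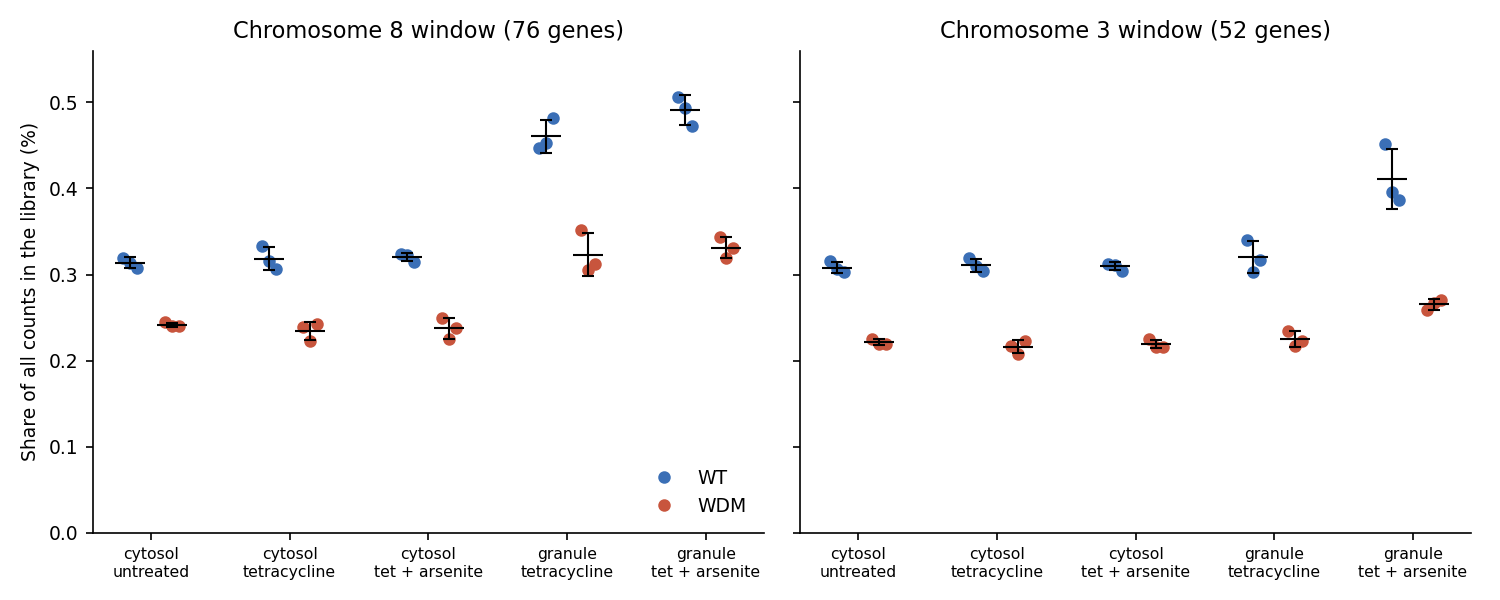
Share of all counts (%) taken by the members of each window, by library; points are libraries, bars the mean and SD of 3 libraries, blue WT and red WDM. WDM lies below WT in every setting, and the share of the chromosome 8 members is larger in the granule fraction of both lines.

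Along both chromosomes line differences below 0 ran through the windows, with breaks. On chromosome 8 the one tested gene from 2 to 4 Mb, MYOM2, was above 0 and no gene was tested from 4 to 6 Mb. TRMT9B, between 12 and 14 Mb, was slightly above 0 (0.05). On chromosome 3 OSTN and FAM157A were above 0. Of 274 stretches of 10 Mb with at least 20 tested genes, chromosome 3 from 190 to 200 Mb had the lowest median line difference (-0.55 over all 52 tested genes there). Chromosome 8 from 0 to 10 Mb ranked 3 (-0.50 over 29 genes) and from 10 to 20 Mb ranked 4 (-0.48 over 43 genes), after chromosome 16 from 20 to 30 Mb (-0.50). The middle of the 274 medians was 0.02, and 5% of them lay under -0.21. The ranks of the windows follow from their choice by the same difference, and nothing is read from them. The windows do not end where the lower levels end. On chromosome 8 the next 34 genes, from 20 Mb to STC1 (a secreted calcium-regulating hormone, start 23841929), had a median of -0.51 and 33 were below 0, all but the early-response factor EGR3. The 33 genes after STC1 to 30 Mb had a median of 0.10, and 24 of them were above 0.

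On chromosome 3 the 5 tested genes from BCL6, a transcriptional repressor that starts at 187721377, to 190 Mb were all below 0, with a median of -0.64. The 53 genes from 180 Mb to before BCL6 had a median of -0.03, and 27 of them were below 0. Farther in, the stretch from 170 to 180 Mb was again below most of the genome, with a median of -0.28 over 30 genes of which 70% were below 0. At the limits of the rule, CLDN1 (-0.76) and IL1RAP (-0.71) were the first genes inside and P3H2 (-1.14) and TPRG1 (-0.15) the last outside. By counts, UTS2B entered with 309 counts and a mean line difference of -0.77, where the row closest under the limit had 296 counts and was left out.

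**Figure D2:**
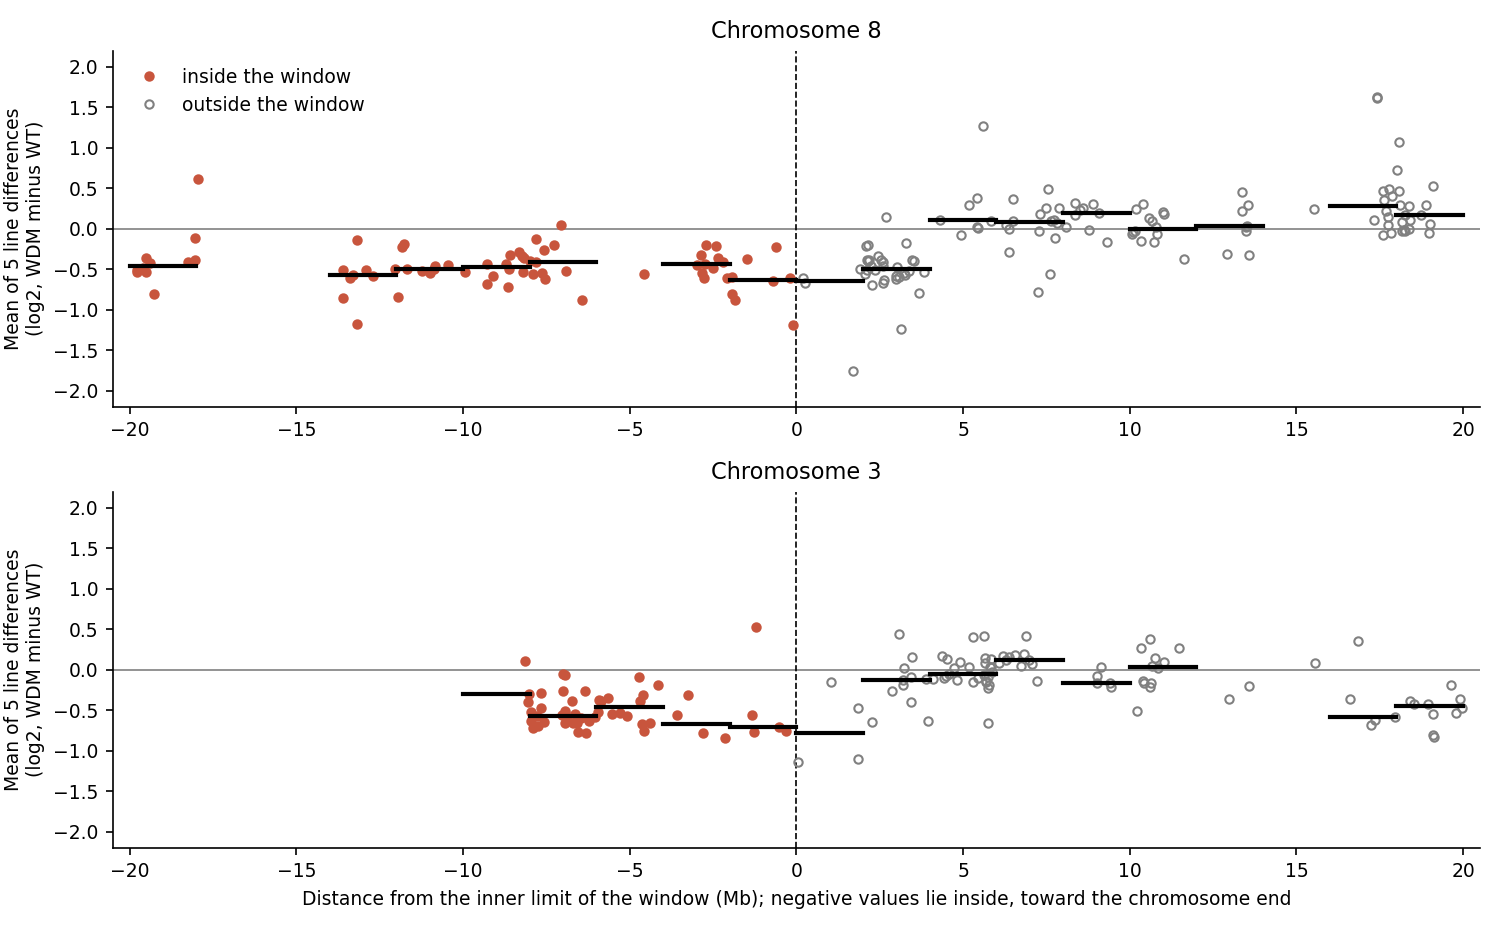
Mean of the 5 line differences (log2, WDM minus WT) of each tested gene against its distance in Mb from the inner limit of the window, with the window to the left; filled points lie inside and open points outside, the 5 genes excluded by name are drawn as inside points, and black bars are medians per 2 Mb with at least 3 genes. Values near -0.5 run through both windows and pass the limit by about 4 Mb on chromosome 8 before they return to about 0.

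Among the chromosome 8 members LPL, the enzyme that releases fatty acids from lipoproteins, had the lowest mean line difference, -1.18 (chromosome 8, 19901717 to 19967259, plus strand). In untreated cytosol LPL had 29.9, 29.4 and 26.3 CPM in WT and 14.0, 12.5 and 14.8 CPM in WDM. With arsenite its granule levels were 11.1, 11.9 and 12.5 CPM in WT and 3.61, 3.35 and 4.41 CPM in WDM. In each of the 5 settings the lines did not overlap, and the mean line difference put WDM at 44% of WT. Of the chromosome 8 members with a symbol and at least 5 CPM in cytosol, the next were the lncRNA GS1-24F4.2 (-1.18), NAT1, an arylamine acetyltransferase (-0.88), DLGAP2, a postsynaptic scaffold protein (-0.81), the pseudogene TDH (-0.72) and SH2D4A, an SH2-domain adaptor (-0.65).

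Abundant chromosome 8 members lay on both sides of that window's median of -0.50. PCM1, a scaffold of the centriolar satellites and the most counted of the chromosome 8 protein-coding members described here (17922840 to 18027975), had 427, 419 and 398 CPM in WT and 299, 291 and 299 CPM in WDM in untreated cytosol. In granules with arsenite PCM1 had 692, 520 and 615 CPM in WT and 323, 363 and 312 CPM in WDM. Its line difference ran from -0.97 to -0.48 over the 5 settings with a mean of -0.61, and no WDM library reached a WT library in either setting. FDFT1, the first enzyme committed to sterol synthesis, had a mean of -0.53 with a range of only 0.17 between settings. CTSB, a lysosomal protease, had a mean of -0.36, or 77.8% of WT.

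The upper end of the chromosome 8 members was taken among those with a symbol and at least 5 CPM in cytosol. It held FAM86B3P (-0.19), FAM86B1 (-0.13), TRMT9B, a tRNA methyltransferase (0.05), and MYOM2. FAM86B1, FAM86B2 and FAM86B3P are near-identical copies, so the assignment of reads among them is uncertain. MYOM2, a protein of the muscle M-band (2045046 to 2165552), was the one chromosome 8 member above 0 in all 5 settings, with a mean of 0.62. In cytosol with tetracycline MYOM2 had 23.4, 21.0 and 26.4 CPM in WT and 50.1, 40.2 and 43.8 CPM in WDM, with no overlap. Granules with arsenite held 46.6, 53.4 and 66.6 CPM in WT and 104, 52.3 and 115 CPM in WDM, and replicate 2 of WDM lay inside the WT range. MYOM2 was above 0 in each setting under every scaling tried, while TRMT9B was above 0 in 3 settings and below it in the others.

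Of the chromosome 3 members with a symbol and at least 5 CPM in cytosol, the lowest by mean line difference were FGF12, an intracellular FGF-family protein that binds sodium channels (-0.84), MB21D2 (-0.78), WDR53, a WD-repeat protein (-0.77), CLDN1, a tight-junction protein (-0.76), the lncRNA TMEM44-AS1 (-0.75) and IQCG, a protein of motile cilia (-0.72). FGF12 (192139390 to 192767764, minus strand) had 17, 12.1 and 12.8 CPM in WT and 9.69, 8.10 and 8.31 CPM in WDM in untreated cytosol. In granules with tetracycline it had 76, 69.1 and 101 CPM in WT and 44.9, 32.5 and 36.3 CPM in WDM. WT and WDM libraries were separate in both settings, while in cytosol with tetracycline they overlapped (15.8, 8.23 and 9.00 CPM in WT, 8.91, 5.73 and 9.85 CPM in WDM). Its line difference was -1.13 in each granule setting and between -0.77 and -0.47 in cytosol.

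OPA1 (193593144 to 193697811), among the most abundant of the chromosome 3 members, had 419, 407 and 386 CPM in WT and 319, 298 and 310 CPM in WDM in untreated cytosol. Granules with arsenite held 377, 304 and 315 CPM in WT and 178, 191 and 177 CPM in WDM. Every WDM library was below every WT library in both settings, with line differences of -0.42 and -0.97. SENP5, a SUMO protease, kept a narrow range, from -0.71 to -0.56 over the 5 settings. ATP13A3, a polyamine transporter of endosomes, reached the highest level of any member, 1221, 866 and 826 CPM in WT granules with arsenite, against 480, 512 and 529 CPM in WDM.

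A few chromosome 3 members departed from the rest. HES1 (194136148 to 194138732) had 72.5, 77.4 and 75.9 CPM in WT and 65.6, 68.4 and 64.3 CPM in WDM in untreated cytosol, a line difference of -0.22. Over the 5 settings its line difference stayed between -0.24 and -0.13, and in granules with arsenite the lines overlapped (50.7, 57.2 and 63.4 CPM in WT, 48.6, 51.3 and 56.1 CPM in WDM). OSTN, which encodes the secreted peptide osteocrin (191199241 to 191265615), had 4.04, 3.47 and 2.70 CPM in WT and 8.72, 8.54 and 8.92 CPM in WDM in untreated cytosol. All WDM libraries were higher there, with a line difference of 1.32, but with tetracycline the lines overlapped (3.03, 3.07 and 3.81 CPM in WT, 4.14, 3.51 and 5.61 CPM in WDM) and the difference was 0.40. The pseudogene FAM157A had a mean of 0.11 and MELTF, a transferrin-family protein, a mean of -0.26.

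The promoters of 3 chromosome 3 members are shown because these genes span the range of line differences on that arm, from MB21D2 near the bottom (-0.78) through HES1 (-0.19) to OSTN at the top (0.53). Each run is the 250 bases before the annotated start, 5′ to 3′ on the gene's strand, from RefSeq (GRCh38.p14). Capitals mark matches, on either strand, to GGGCGG (the GC box, CCGCCC on the other strand) or to TATAAA (the TATA box), motifs that cannot overlap each other.
MB21D2 (chr3:192917857-192918106, minus strand): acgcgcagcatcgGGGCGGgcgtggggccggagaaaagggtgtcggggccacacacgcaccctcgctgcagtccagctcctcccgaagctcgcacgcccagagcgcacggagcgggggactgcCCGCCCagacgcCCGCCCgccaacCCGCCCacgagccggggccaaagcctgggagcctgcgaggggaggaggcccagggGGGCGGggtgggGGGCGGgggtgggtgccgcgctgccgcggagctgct
HES1 (chr3:194135898-194136147, plus strand): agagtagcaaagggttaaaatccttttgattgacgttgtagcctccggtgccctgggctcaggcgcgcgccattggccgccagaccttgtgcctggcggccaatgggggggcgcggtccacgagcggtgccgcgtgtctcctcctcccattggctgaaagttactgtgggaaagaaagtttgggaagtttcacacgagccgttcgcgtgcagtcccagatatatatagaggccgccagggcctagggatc
OSTN (chr3:191198991-191199240, plus strand): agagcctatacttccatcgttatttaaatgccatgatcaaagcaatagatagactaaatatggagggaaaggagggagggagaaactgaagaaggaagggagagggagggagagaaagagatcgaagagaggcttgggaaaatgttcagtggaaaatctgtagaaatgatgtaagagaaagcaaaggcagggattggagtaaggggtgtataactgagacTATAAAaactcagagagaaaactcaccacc
MB21D2 has 6 GC boxes and 29 CpG pairs, HES1 has neither motif and 18 CpG pairs, and OSTN has 1 TATA box and 2 CpG pairs. Of the 46 chromosome 3 members with a symbol, 41 matched the table, with 57 promoter windows. The GC box was found in 38 of these windows (66.7%), against 42.6% of all 35116 windows of this length, and the TATA box in 2 (3.51%), against 10.7%. The median number of CpG pairs was 24 in the members' windows and 11 over all windows. The motifs are matches of letters and say nothing of which factor binds. Members had to reach the count limit and the genes of the other windows did not, so the sets are not matched for expression. No trait of the chromosome 3 window is read from these shares.

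**Figure D3:**
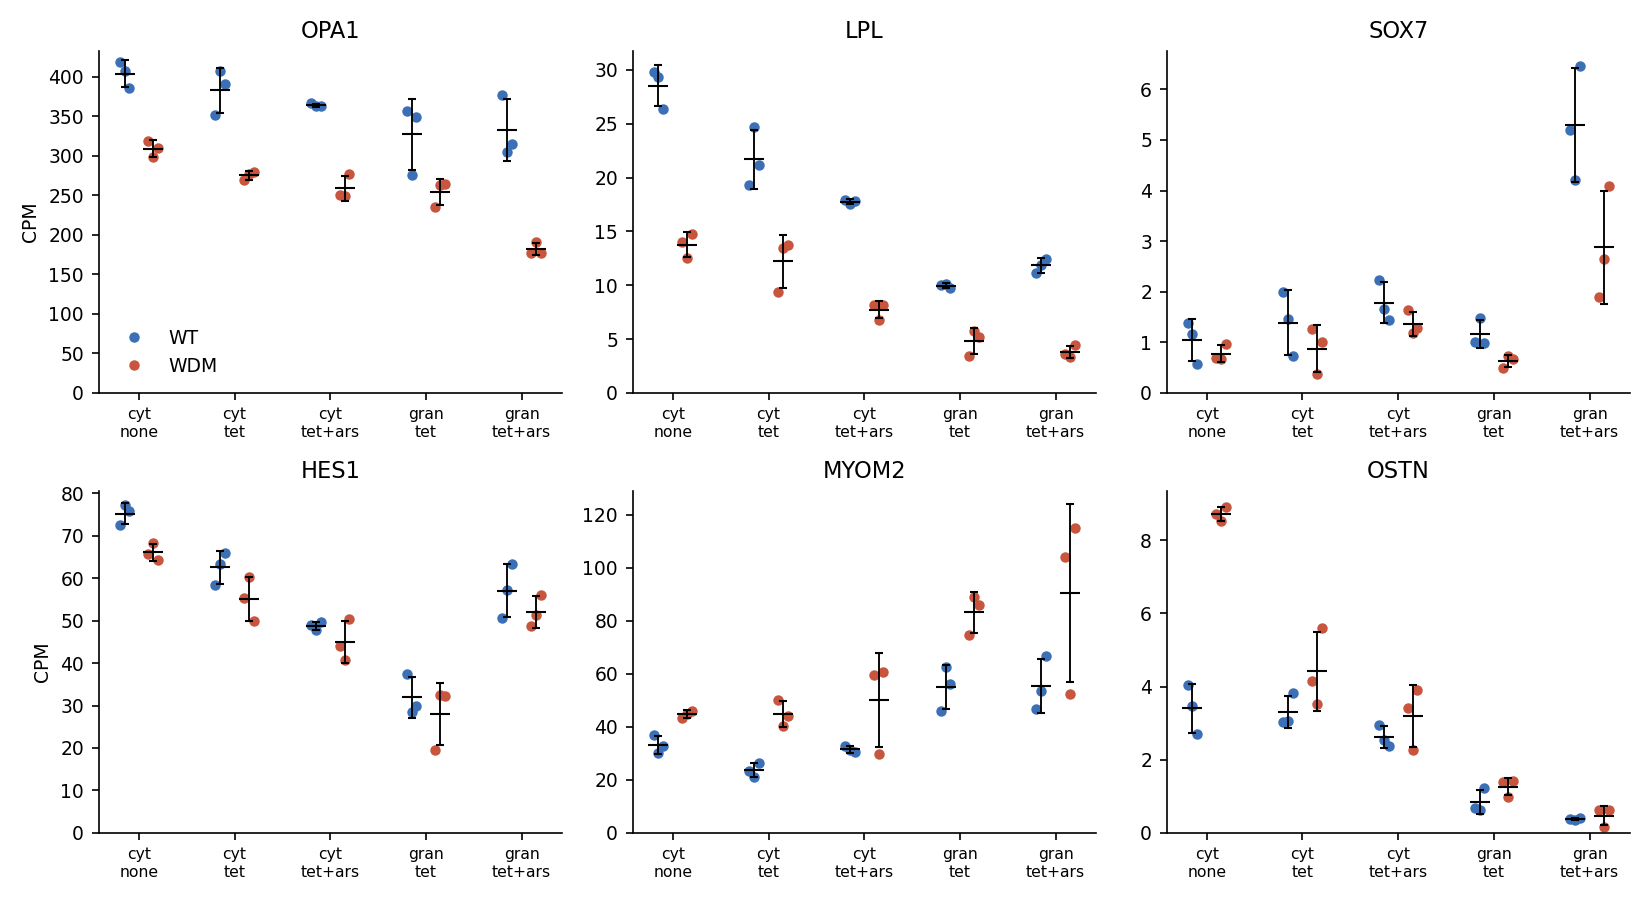
CPM of 6 members in each library, with the mean and SD of 3 libraries, blue WT and red WDM; each panel has its own axis from 0. OPA1 and LPL are lower in WDM in all 5 settings, HES1 lies close to WT, MYOM2 is higher in WDM, OSTN is higher in untreated WDM cytosol, and SOX7 is highest in granules with arsenite in both lines.

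Grouped by role, the members' lists had median line differences between -0.63 and -0.45, beside a median of 0.01 over all genes. The role lists were drawn up with earlier results of these data known. Mean line differences had a median of -0.45 over 7 genes of genome maintenance (lowest SENP5 at -0.61), -0.61 over 7 genes of RNA processing and translation such as the deadenylase CNOT7, and -0.57 over 10 lipid, sterol and glycan enzymes. The median was -0.48 over 7 genes of lysosome, endosome and autophagy, -0.54 over 8 of centrosome, cilium and cytoskeleton, and -0.59 over 5 ubiquitin ligase genes such as FBXO45. It was -0.63 over 4 junction and surface genes, -0.51 over 8 genes listed as transcription factors and developmental signals, a list that also holds FGF12 and the protein phosphatase 1 subunits PPP1R2 and PPP1R3B, and -0.54 over 3 mitochondrial and redox genes. In each list at least 3 in 4 of the tested genes were below 0 in all 5 settings. The same held for 96 of all 118 members tested in both fractions, beside 16.2% of all genes. The windows were chosen by this difference, so nothing is read from it about any role.

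By gene type the median line difference was -0.53 over 83 protein-coding members (69.2% of WT), -0.50 over 25 lncRNAs and -0.40 over 10 members of other types. It was -0.54 over 57 members with at least 10000 counts and -0.43 over 61 with fewer. Of the 128 members, 51 overlap another gene on the same strand and 88 on the opposite strand, and the sources used here do not say how reads in overlaps were assigned. The 26 tested members that overlap no gene had a median of -0.43 and the 92 that do a median of -0.53.

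Followed gene by gene in both fractions, 80 of 118 members had a lower line difference in granules than in cytosol, with a median shift of -0.11 on the log2 scale. That shift sets the mean of 2 granule settings against the mean of 3 cytosol settings, of which the untreated one has no granule counterpart, and it was not itself tested. The count of 80 was not taken over all genes, so no trait of the members is read from it. It was -0.48 for FGF12, -0.41 for TNKS (a tankyrase, which modifies telomere proteins) and -0.39 for DLGAP2. It went the other way for PDGFRL, a receptor-like protein (0.35), and TNK2, a non-receptor tyrosine kinase (0.28). At matched treatment, 74 of 128 members had the lower line difference in granules with tetracycline, where 53.2% of all genes did, and 85 of 128 with arsenite, where 53.9% did. In the test of that matched difference edgeR called 0 of 128 members at a Benjamini-Hochberg adjusted p under 0.05 with tetracycline (background 0.00551%) and 0 of 128 with arsenite (background 0.00551%). At an unadjusted p under 0.05 there were 7 members with tetracycline, against 5.12% of all genes, and 15 with arsenite, against 6.62%. DESeq2 also called 0 in each.

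**Figure D4:**
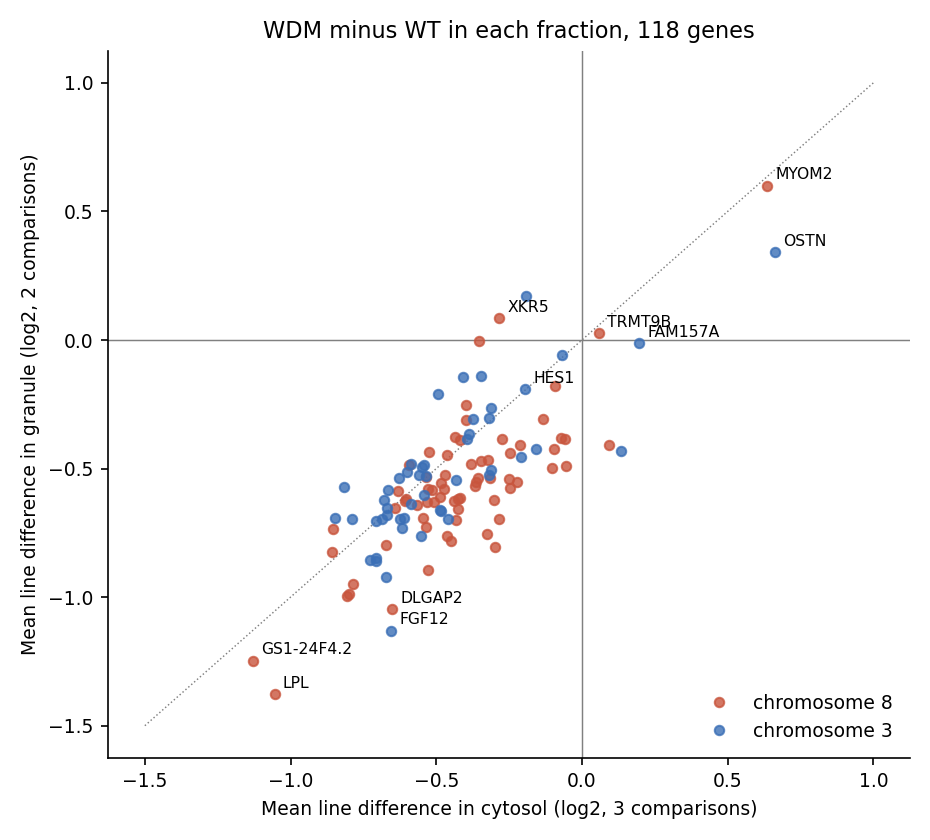
Mean line difference in cytosol (x, log2, 3 settings) against the mean in granules (y, log2, 2 settings) for the 118 members tested in both; the dotted line marks equal values. Nearly all points lie below 0 on both axes, 80 lie under the dotted line (a count not taken over all genes), and MYOM2 and OSTN stand apart above 0.

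Whether the line difference changed with treatment was tested within each fraction, and no member was called. By adjusted p, edgeR called 0 of 119 members for tetracycline in cytosol (background 0.018%), 0 of 119 for arsenite in cytosol (background 0%) and 0 of 127 for arsenite in granules (background 0%). At an unadjusted p under 0.05 there was 1 member for tetracycline in cytosol, against 4.49% of all genes, and there were 3 for arsenite in cytosol, against 1.99%. For arsenite in granules there were 21, against 12.7% of all genes. DESeq2 called 0 in each of the 3 tests. Of the 4 granule members at the smallest adjusted p, CEP19, a ciliary protein, had the largest interaction, -1.29 (SE 0.36, edgeR Benjamini-Hochberg adjusted p 0.254). ASAH1 came next with -0.92 (SE 0.25, edgeR adjusted p 0.254), and both genes had more negative line differences with arsenite. In cytosol OSTN had an interaction with tetracycline of -0.92 (SE 0.30, edgeR adjusted p 0.855).

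Effects within a line do not use the rule and were tested. Tetracycline changed few members in cytosol. In WT 4 of 119 members rose and 4 fell (background 5.31%), and in WDM 1 rose and 6 fell (6.3%). MB21D2 rose in both lines, by 0.42 (SE 0.09, edgeR adjusted p 0.0119) in WT and by 0.31 (SE 0.09, edgeR adjusted p 0.0456) in WDM. FAM86B1, FAM86B2 and FAM86B3P fell in both, FAM86B3P by 1.03 in WT and 0.70 in WDM on the log2 scale, with the reservation on near-identical copies given above. OSTN fell by 0.92 on the log2 scale in WDM (SE 0.19, edgeR adjusted p 0.00637) and had a log2 fold change of 0.00 in WT. These counts rest on single libraries: 13 were called in WT without tetracycline replicate 1, 3 without replicate 2 and 1 without replicate 3, and 2 without any one of the untreated replicates. In WDM 3 to 5 were called, and all but the fit without tetracycline replicate 2 moved the count by more than 1.5 times. In these fits each call named here was lost at least once except that of OSTN. In WT the call of MB21D2 was lost without untreated replicate 1 and that of FAM86B3P without tetracycline replicate 3. In WDM the call of MB21D2 was lost without any one of the untreated replicates or of tetracycline replicates 1 and 3, with library size alone, with no low-count filter and with only the groups compared.

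Arsenite changed the members in cytosol about as often as other genes. In WT 18 of 119 rose and 23 fell (background 29%), and in WDM 10 rose and 22 fell (28.8%). There were 22 members called in both lines, 5 higher and 17 lower, and none in opposite directions. The same count was not taken over all genes, so no trait of the members is read from it. The lysosomal enzymes CTSB and ASAH1 fell in both lines. CTSB went from 134, 129 and 126 to 99.8, 94.1 and 89.7 CPM in WT, and from 91.1, 110 and 108 to 72.7, 60.3 and 70.4 CPM in WDM, with no overlap in either line. Its log2 fold change was -0.59 (SE 0.08, edgeR adjusted p 3.67e-05) in WT and -0.70 (SE 0.08, edgeR adjusted p 1.11e-05) in WDM. ASAH1 fell by 0.60 and 0.61 on the log2 scale.

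By role, 5 of 10 lipid, sterol and glycan enzymes fell with arsenite in cytosol of each line and none rose, where 15.3% of all genes fell in WT and 14.8% in WDM. The calls of ASAH1 and PIGX, which acts in GPI-anchor assembly (-0.52 in WT and -0.55 in WDM), were kept in both lines under every alternative. Those of FDFT1 in both lines, LPL in WT and AGPAT5 in WDM were each lost in 5 to 7 alternatives, among them the fits without tetracycline replicate 2 and without arsenite replicate 1 of the line. Of the 7 RNA processing genes 4 fell in WT and 3 in WDM. The calls of NCBP2, a subunit of the nuclear cap-binding complex (-0.42 and -0.44), were kept under every alternative. Those of CNOT7 and INTS10 in both lines and FYTTD1 in WT were each lost in 4 to 8, always including the fit without tetracycline replicate 2 of the line. HES1 fell by 0.49 in WT and by 0.38 in WDM, and the second call was lost without WDM tetracycline replicate 2 and with only the groups compared in the fit. DLG1, a scaffold of cell junctions, rose by 0.39 and 0.37. FGF12 rose by 0.86 in WT (SE 0.20, edgeR adjusted p 0.00356) and had 0.56 in WDM (SE 0.21, edgeR adjusted p 0.0503). GATA4, a cardiac and endodermal transcription factor, rose by 0.73 in WDM (edgeR adjusted p 0.00352) and had 0.36 in WT (edgeR adjusted p 0.0955).

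The counts for cytosol with arsenite depended on the tetracycline libraries. In WT 64 members were called without tetracycline replicate 1, 19 without replicate 2, 20 without replicate 3, and 26 and 21 without arsenite replicates 1 and 2. In WDM 14 were called without tetracycline replicate 2 and 13 without arsenite replicate 1. In WT tetracycline replicate 1 read high for PAK2 and DLGAP2, and in WDM for PAK2 only of these. PAK2 had 114, 59.9 and 62.7 CPM in WT cytosol with tetracycline and 85.8, 44.9 and 66.6 CPM in WDM. DLGAP2 had 16.3, 6.70 and 5.03 CPM in WT and 7.53, 3.79 and 7.57 CPM in WDM in the same groups. What part this has in the counts was not tested beyond these fits.

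In the granule fraction arsenite raised some members and lowered others, with SOX7 and PAK2 among those raised in both lines. In WT 27 of 127 members rose and 21 fell (background 30.6%), and in WDM 22 rose and 19 fell (36.3%). In both lines 17 rose and 10 fell, with none in opposite directions, a count that was not taken over all genes. SOX7, a transcription factor of endothelium and endoderm (10723768 to 10730511), went from 1.02, 1.48 and 0.993 to 5.20, 4.22 and 6.46 CPM in WT and from 0.496, 0.724 and 0.673 to 1.89, 2.65 and 4.08 CPM in WDM. In each line every arsenite library lay above every other granule library. The rise was 2.21 (SE 0.33, edgeR adjusted p 2.75e-05) in WT and 2.09 (SE 0.37, edgeR adjusted p 8.41e-05) in WDM. SOX7 shares sequence span with neighbours on both strands, so its counts are uncertain.

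PAK2 (196739857 to 196832647) went from 152, 130 and 101 to 432, 306 and 340 CPM in WT granules. In WDM granules it went from 98.3, 95.5 and 96.2 to 210, 262 and 286 CPM. The groups were separate in both lines, with rises of 1.53 (SE 0.19, edgeR adjusted p 3.66e-06) and 1.33 (SE 0.19, edgeR adjusted p 7.66e-06). Of the 5 ubiquitin ligase genes 4 rose in each line, FBXO25, FBXO45, KBTBD11 and RNF168, and none fell, where 16.5% of all genes rose in WT and 18.7% in WDM. FBXO25 rose by 1.30 in WT and by 0.89 in WDM. LONRF1, a RING-finger protein, rose by 1.32 and 0.81. The call of FBXO45 in WDM (0.57) was lost with RLE factors, with DESeq2 and without any one of 5 libraries: tetracycline replicates 1, 2 and 3 and arsenite replicates 2 and 3. Other role lists varied. Of 8 listed transcription factors and developmental signals 4 rose and 1 fell in WT, and 5 rose and 1 fell in WDM. Of 7 lysosome, endosome and autophagy genes 4 rose in WT and 1 in WDM. Of 7 RNA processing genes 1 rose in WT, while in WDM none rose and 2 fell. HES1, which fell in cytosol, rose in granules by 0.86 and 0.81.

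Among the members that fell in granules with arsenite, MICU3, a regulator of mitochondrial calcium uptake, went from 49.1, 46 and 80.2 to 27.6, 32.3 and 24.8 CPM in WT. In WDM it went from 54.1, 35.8 and 41.6 to 21.8, 17.0 and 16.6 CPM. It fell by 1.04 (SE 0.19, edgeR adjusted p 0.000233) and by 1.31 (SE 0.19, edgeR adjusted p 1.1e-05). ASAH1 fell by 1.11 in WDM (edgeR adjusted p 3.87e-05) and had -0.19 in WT (edgeR adjusted p 0.442), and the test of that contrast between lines is the interaction given above. OSTN fell by 1.27 in WT and 1.46 in WDM from about 1 CPM, and its WT call was lost with DESeq2 and without granule tetracycline replicate 3 or any one of the arsenite replicates. The WT count of 48 called members was 26 without granule tetracycline replicate 3 and 31 without arsenite replicate 3.

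Most members differed between the fractions, as most genes did. Of 128 members 68 were higher and 37 lower in granules than in cytosol in WT with tetracycline (background 75.7%), and 66 and 31 in WDM (71.1%). With arsenite 64 were higher and 32 lower in WT (70.5%), and 59 and 35 in WDM (72%). Of all genes 39.5% were higher and 36.2% lower in granules in WT with tetracycline, and 35.8% and 35.3% in WDM. With arsenite 35.0% were higher and 35.5% lower in WT, and 36.3% and 35.7% in WDM. The median log2 fold change was 0.63 and 0.54 with tetracycline in WT and WDM, where over all genes it was 0.07 and 0.02. It was 0.50 and 0.35 with arsenite, where over all genes it was 0.05 and 0.06. On chromosome 8 the members' medians were 0.77 and 0.61 with tetracycline in WT and WDM, and 0.75 and 0.68 with arsenite. On chromosome 3 they were smaller, 0.24 and 0.28 with tetracycline, and 0.23 and 0.20 with arsenite. With tetracycline 95 members were called in both lines, all in the same direction, a count that was not taken over all genes.

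DLGAP2 (737628 to 1708476) was the member named here most enriched in granules with tetracycline. It had 16.3, 6.70 and 5.03 CPM in WT cytosol with tetracycline and 153, 173 and 129 CPM in WT granules. In WDM it had 7.53, 3.79 and 7.57 CPM in cytosol and 73.1, 63.7 and 70.0 CPM in granules. The fractions did not overlap in either line, with log2 fold changes of 3.98 (SE 0.29, edgeR adjusted p 9.45e-12) and 3.44 (SE 0.29, edgeR adjusted p 2.88e-10). FGF12 was higher in granules by 2.86 and 2.19 and XKR6, an XK-family membrane protein, by 2.80 and 2.39. All 3 genes have long spans that overlap other genes on both strands.

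Among the members depleted from granules was ASAH1, which had 111, 130 and 119 CPM in WT cytosol with tetracycline and 22.7, 21.9 and 28.0 CPM in WT granules. In WDM it had 69.0, 85.1 and 83.8 CPM in cytosol and 17.7, 25.5 and 20.9 CPM in granules. The separation was complete, with log2 fold changes of -2.34 (SE 0.15, edgeR adjusted p 6.95e-14) and -1.88 (SE 0.15, edgeR adjusted p 6.02e-12). NCBP2 was lower in granules by 2.26 on the log2 scale in WT and by 1.97 in WDM, and CNOT7 by 1.87 and 1.42. With arsenite 5 of the 7 RNA processing genes were lower in granules in each line, where 35.5% of all genes were in WT and 35.7% in WDM, and 1, TRMT9B, was higher (0.84 in WT and 0.54 in WDM, the second call lost without WDM cytosol replicate 2 or granule replicate 1 with arsenite). MYOM2 was higher in granules in all 4 comparisons, by 0.79 to 1.19.

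**Figure D5:**
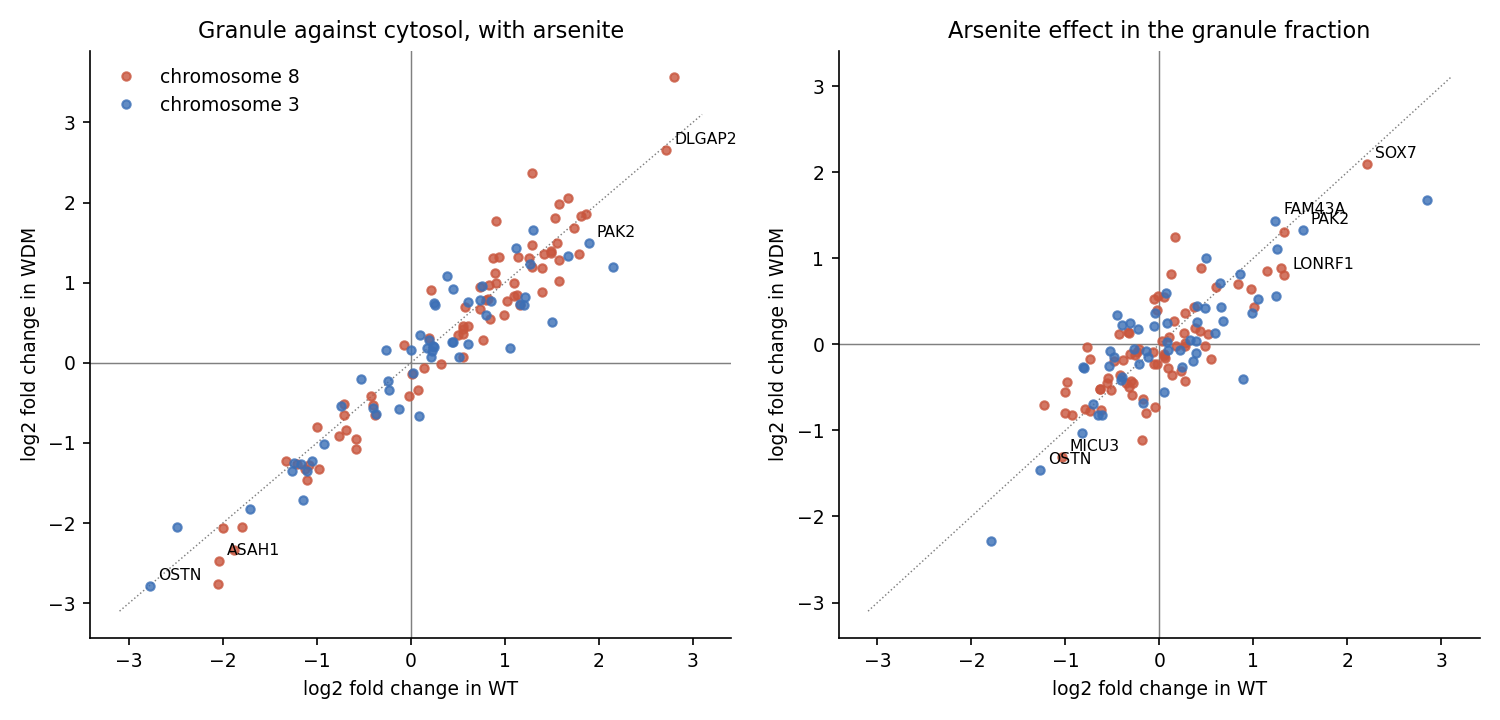
Log2 fold changes in WT (x) against WDM (y) for each tested member, granule against cytosol with arsenite on the left and the effect of arsenite in granules on the right; the dotted line marks equal values. On the left the points run from OSTN and ASAH1 at the low end to DLGAP2 near the high end; on the right they scatter more, with SOX7 high and OSTN low in both lines, and with ASAH1 (-0.19 in WT, -1.11 in WDM) off the line.

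Exonic length was similar to that of other genes, with a median of 5096 bases for the members and 4566 for all genes tested. Across the 128 members, Spearman's rho between this length and the log2 fold change of granule against cytosol ran from 0.09 in WT with tetracycline to 0.24 in WT with arsenite. Over all genes it ran from 0.23 to 0.31. These describe genes of the same libraries, which are not independent replicates.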

How the data were processed

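Members and gene lists were chosen with earlier results of these data known. The authors deposited raw read counts per gene, 1 column per library with no pooling. The submitters' processing notes name Trimmomatic, STAR, Picard, featureCounts and GRCh38; their settings, including strand and the handling of overlapping genes, are not given in the sources used here. The libraries were stranded total RNA after rRNA removal, per the labels' protocols. Groups and replicate numbers come from the sample titles.

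Counts were fitted with edgeR 4.0.16 (R 4.3.3, limma 3.58.1): filterByExpr (minimum count 10, minimum total 15), TMM factors, group means, robust quasi-likelihood F-test, and Benjamini-Hochberg adjustment over all genes of a comparison. The 18 cytosol libraries (16670 genes, 119 members tested), the 12 granule libraries (18366, 127 members) and the 24 libraries given tetracycline (18141, 128 members; between fractions) were fitted separately. The procedure was tested on simulated data. A member is called at an adjusted p under 0.05. CPM values are per library, SD is over 3 libraries and SE is that of the fitted log2 fold change. The 3-count limit covers counting error alone: the labels name no molecular identifiers, so reads may repeat a molecule.

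Members were named by rule: in each window the 6 lowest and 4 highest by mean line difference (a symbol and at least 5 CPM in cytosol), role-list members, up to 4 called members per direction and comparison, and those at the limits of the rule. MELTF-AS1 and the genes beside the windows were named after their values were seen. Alternatives were DESeq2 1.42.0, scaling by RLE factors or by library size alone, every gene kept whatever its counts, the replicate number as a block, only the groups compared, each library left out, members with at least 3000 counts, and members that overlap no other gene. Exon lengths, types and overlaps come from GENCODE v44. Tables were made with pandas 2.3.3 and numpy 2.4.6 under Python 3.11.15, and plots with matplotlib 3.10.9.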

Additional observations from a re-analysis of the deposited data

How the results depend on the processing

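No median line difference and no called effect of a named or role-list member changed direction under the alternatives run. Changes of sign in single line differences near 0 were not tracked, and the other members were not checked one by one. The median line difference of untreated cytosol (-0.439) was -0.405 with library size alone, -0.379 without a low-count filter and -0.397 over members that overlap no other gene, and -0.464 to -0.408 with 1 library left out. That of arsenite granules (-0.594) was -0.507 with library size alone and -0.402 over members that overlap no other gene. With only the groups compared in the fit, 1 member was called for tetracycline in WT (8 otherwise), 23 for arsenite in WT cytosol (41) and 10 in WDM cytosol (32). With 1 library left out the counts ran from 1 to 13 for tetracycline in WT, 3 to 5 in WDM (7 with all libraries), 19 to 64 and 13 to 37 for arsenite in WT and WDM cytosol, and 26 to 47 for arsenite in WT granules (48). Except where fewer samples explain it, the cause was not tested. Counts between fractions and the 0 calls of every interaction stayed within 1.5 times under each alternative, DESeq2 included. Library size alone moved the median of all genes for arsenite in WT cytosol from -0.02 to 0.11.

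The replicate numbers did not pair the libraries throughout. Over 45 same-numbered pairs the correlation of deviations ran from -0.219 to 0.563, and it passed 0.1 in all pairs of 1 comparison of 15. That comparison was granule against cytosol in WDM with arsenite (0.350, 0.563 and 0.306). The line difference in cytosol with tetracycline had 0.451, 0.352 and -0.0939. With the replicate number as a block, the genes called for arsenite in WT cytosol went from 4832 to 5893. Those called for arsenite in WT granules went from 5620 to 5393. With the replicate block the median line difference of untreated cytosol was -0.437, 48 members were called for arsenite in WT cytosol and 45 in WT granules, and no count moved by over 1.5 times. For arsenite in granules the block ended single calls of LRCH3 (both lines), PCYT1A and TNK2 (WT) and DLG1 (WDM). Depth limits the lowest members, since 3 counts correspond to up to 0.508 CPM.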

Other observations

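The 5 genes set aside by name lie in the same windows and had line differences like those of the members. TFRC, the transferrin receptor (147762 counts), had a mean of -0.58 over the 5 settings, TUSC3, a subunit of the oligosaccharyltransferase complex, -0.56, the pseudogene RPL23AP53 -0.54, the ribosomal protein gene RPL35A -0.52 and the amino-acid transporter SLC7A2 -0.48. RPL35A varied most between settings, from -0.83 in granules with arsenite to -0.08 in granules with tetracycline.

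Just beyond the chromosome 8 limit the vacuolar ATPase subunit ATP6V1B2 (-0.61) and LZTS1 (-0.67) had values like those of INTS10 inside it (-0.61). LPL, the last member inside the limit, was lower (-1.18). Lower values than in any member were found for GFRA2, a receptor of the GDNF family (-1.76), and TNFRSF10D, a decoy receptor of TRAIL, was at -1.23. Between the windows' ends and the points where values returned to about 0, EGR3 on chromosome 8 (0.14) was the one gene above 0.

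MELTF-AS1, a lncRNA that overlaps a gene on the opposite strand, had the lowest effect of arsenite in granules among the members, -1.79 (SE 0.36, edgeR Benjamini-Hochberg adjusted p 0.000548) in WT and -2.29 (SE 0.34, edgeR adjusted p 1.51e-05) in WDM. It was named after its values were seen, and the alternatives were not run for it.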
